A study of Mus musculus with 148 samples.

Results

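Neut Lcn2 is 1 of the 5 neutrophil subpopulations that the authors separated in lungs and primary tumors of mice carrying the breast cancer line EO771. Its members were the sorted cells that the deposited cell annotation assigns to Neut Lcn2. There were 1604 of them among 24020 annotated cells, which made up 40.4% of 3972 annotated neutrophils, and they came from 49 of the 63 combinations of mouse and tissue. EO771 is a mouse mammary carcinoma line, used here with a tdTomato label carried by a lentiviral vector, and the recipients were female C57/b6 PA-GFP mice, whose cells carry a green fluorescent protein that has to be switched on by light. In tumor-bearing mice, EO771-tdTomato cells were placed in the mammary gland at 8 weeks of age and the tumor was removed 3 weeks later, except in Pre-MET mice, which were sampled before resection, and in mouse 38, which gave a primary tumor and no lung and for which no time of removal was used. The other primary tumors were those of the 3 Pre-MET mice.

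Single cells were sorted into plates by flow cytometry and profiled by SPID-seq, a plate-based method of single-cell RNA sequencing. Their transcripts were counted as unique molecular identifiers (UMIs), so that amplified copies of a molecule count once. The groups were whole lungs of control mice (labelled Normal, 3 mice), of Pre-MET mice (3 mice) and of relapse-free mice without metastases after resection (6 mice), distal normal lung tissue without tdTomato signal (14 mice), metastasis tissue (13 mice), photoactivated metastasis core (13 mice) and invasive margin (7 mice) of metastasis-bearing lungs, and primary tumors (4 mice). Cells were gated as CD31-CD45+, except cores and margins, which were gated as photoactivated CD31-GFP+ cells, so that gate and region cannot be told apart there. The core plates of mouse 17, which gave 42 of the 105 Neut Lcn2 cells of cores, were gated on CD45 as well as on photoactivation. The plates of relapse-free mice 6 and 7 were also partly gated on photoactivation. The photoactivated region of margin plates is labelled ADJ, except in mouse 17, where it is labelled NON-MET. Mouse 17 gave 121 of the 203 Neut Lcn2 cells of margins. Distal normal and metastasis tissue are pieces of a lung while control, Pre-MET and relapse-free samples are whole lungs, and the kind of piece cannot be told apart from the condition.

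Neut Lcn2 cells were spread unevenly over the samples. Mice 17, 26 and 37, all metastasis-bearing, supplied 1122 of the 1604 cells (70.0%), whereas the 3 control lungs supplied 12 cells in all and the primary tumors 3. At least 10 cells, the minimum for a sum used in tests of expression, were reached in 24 samples with 1519 cells: 2 Pre-MET, 4 relapse-free, 6 distal normal, 7 metastasis, 3 core and 2 margin samples. These sums held 8535 to 731354 UMIs, with a median of 53040.5. Per cell, the median was 1076 UMIs and 329.5 genes, and 1.25% of UMIs were mitochondrial. No well was listed more than once.

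Neutrophils are short-lived phagocytes that pack antimicrobial proteins into granules while they mature in the bone marrow. Myeloperoxidase and elastase are loaded first into primary granules, then lactoferrin, cathelicidin, lipocalin 2 and collagenase into secondary granules, and gelatinase late, into tertiary granules, so that the granule transcripts of a neutrophil mark how far it has matured. These genes are shut down as the cells mature, and mature cells can switch on cytokines and chemokines such as interleukin 1 beta and Cxcl2. Factors of the C/EBP family, C/EBP epsilon among them, drive the secondary granule genes.

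The subpopulation is marked by Lcn2, which encodes the siderophore-binding protein lipocalin 2, Ngp, which encodes the neutrophilic granule protein, and Retnlg, which encodes the secreted resistin-like gamma. In GRCm38 the GENCODE annotation places Lcn2 at chr2:32384633-32388252 on the minus strand, Ngp at chr9:110419747-110423012 on the plus strand and Retnlg at chr16:48872621-48874496 on the plus strand. The promoters of these 3 genes and of Mmp8, the neutrophil collagenase that ran highest beside Retnlg, each held a match to the C/EBP motif in the 250 bases before the start given by RefSeq. The stretches shown carry that match in capitals (letters TTGCNNAA, searched on both strands, RefSeq sequences of build GRCm38.p6, written 5′ to 3′ on the strand of the gene).
Lcn2 (chr2:32387937-32387966, minus strand): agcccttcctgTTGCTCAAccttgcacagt
Ngp (chr9:110419659-110419688, plus strand): gtcctggtttaTTGCCCAAacctccttgcc
Retnlg (chr16:48872358-48872380, plus strand): agctTTCTGCAAggcattccagg
Mmp8 (chr9:7558399-7558428, plus strand): ttaggcagaagTTGCTCAAgatgtagcttt
The promoter of Ngp held 2 such matches, of which the one farther from the start is shown. The first base of the match shown lay 216 bases before the start of Lcn2, 138 before that of Ngp, 246 before that of Retnlg, at the edge of the window, and 19 before that of Mmp8. The Lcn2 stretch overlaps an exon in GENCODE, which starts the gene further upstream. Of 32851 mouse promoters, 9.56% held such a match, and so did those of Ltf and Ptgs2, while the windows of Camp, Chil3 and Ifit3 held none. A match is a run of letters and no measured binding site.

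Neut Lcn2 cells were dominated by calprotectin. S100a8, which encodes a subunit of this calcium-binding protein, took 14.7% of all their UMIs, and its partner S100a9 took 5.01%. Wfdc17, a small secreted WAP-domain protein, took 2.26%, Retnlg 2.01% and Il1b, the cytokine interleukin 1 beta, 0.931%. The 10 most abundant genes together made up 31.3% of UMIs.

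To compare detection between subpopulations, every cell was thinned to 500 UMIs, and the share of T cells with a UMI was taken as the level that RNA outside cells can give (6846 T cells, median 996.5 UMIs per cell before thinning). The T cells were pooled over all mice and not matched by mouse or plate to the Neut Lcn2 cells. Their share need not give the level in samples rich in neutrophils. Retnlg was found in 96.1% of Neut Lcn2 cells (98.8% without thinning), against 38.3% of Neut Ptgs2, 61.0% of Neut Ifit3, 82.7% of Neut Camp and 2.16% of T cells. Lcn2 was found in 46.0% of Neut Lcn2 cells (60.1% without thinning), against 12.9% of Neut Ptgs2, 18.6% of Neut Ifit3 and 0.365% of T cells. Lcn2 was however most frequent in Neut Camp, the smaller subpopulation named for cathelicidin, with 88.8%. Ngp behaved likewise, with 16.6% of Neut Lcn2 cells (23.4% without thinning), 1.34% of Neut Ptgs2, 1.41% of Neut Ifit3, 98.0% of Neut Camp and 0.321% of T cells. These shares are pooled over cells, so the mice with many Neut Lcn2 cells, mice 26 and 37 with their high Ngp levels among them, weigh most. The median depth before thinning was 944.5 UMIs in Neut Ptgs2, 886 in Neut Ifit3 and 1718 in Neut Camp cells. The markers were thus more frequent in Neut Lcn2 than in Neut Ptgs2 and Neut Ifit3. In Neut Camp, however, Lcn2 and Ngp were more frequent still.

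Camp and Ltf, secondary granule genes that mark Neut Camp, were rarely detected. Camp, the antimicrobial peptide cathelicidin, was found in 1.75% of thinned Neut Lcn2 cells and 84.7% of Neut Camp cells, with 0.263% in T cells. Ltf, the iron-binding lactoferrin, was found in 0.748% against 75.5%, with 0.204% in T cells. Neither gene is part of what these cells carried in quantity. Pooled over cells, Camp was still at 59.7 CPM in Neut Lcn2, against 7.78 in Neut Ptgs2 and 21.3 in Neut Ifit3. Ltf was at 29.6, 14.4 and 4.27 CPM in the same order. Against all other neutrophils, which include Neut Camp, the working description of Neut Lcn2 as granule-rich was not borne out for secondary granule genes as a group. Their ratios are given with the gene groups, and no group ratio was taken against Neut Ptgs2 or Neut Ifit3 alone.

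Within 23 samples that held at least 10 Neut Lcn2 and 10 other neutrophils, levels in CPM (UMI counts scaled to a common total in every sum) were set against those of the other neutrophils as a log2 ratio of CPM + 10, on which ratios of weak genes are understated. These genes took part in the clustering that defined the subpopulation, so the ratios are a description and no test was made. Tissues of the same mouse, such as those of mice 17, 26 and 37, enter as separate samples. SDs and counts of samples, here and in the ratios below, are therefore not over separate mice. Retnlg led with a mean log2 ratio of 1.52 ± 0.69 (SD, n = 23 samples), from 6860 CPM in the other neutrophils to 19048 CPM, and was higher in 23 of 23 samples. Mmp8, at 1998 against 894 CPM, had a mean ratio of 1.45 and was higher in 21. Wfdc21, a secreted WAP-domain protein, had a ratio of 1.40 ± 0.99 and was higher in 22. These 3 genes headed the ranking, and no other gene among those at 200 CPM or more exceeded 1.06.

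The genes below them are named by their known roles, and no such group was tested. With at least 20 cells per sum, 8 of the 15 leading genes stayed on the list. Glrx, a glutaredoxin, had a mean log2 ratio of 1.06 ± 1.65 and Msra, a methionine sulfoxide reductase, of 0.99 ± 1.59. Stefin A genes, cysteine protease inhibitors that neutrophils make in quantity, took 3 of the 15 leading places: BC100530 with 0.87 ± 2.37, Stfa2 with 0.84 ± 2.00 and Stfa2l1 with 0.73 ± 1.13. These copies are nearly alike in sequence, and since reads with several mapping positions were dropped, the split of counts between them is uncertain. The remaining leading genes were Mtus1 (a microtubule-associated protein), Ifitm6 (an interferon-induced transmembrane protein), Tmem71, AC153368.1, Limd2, Dgat2 (an enzyme of triglyceride synthesis) and Sri (the calcium-binding sorcin), with ratios from 0.81 to 0.96. Their SDs between samples exceeded the ratio itself in each case.

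The lowest genes of Neut Lcn2 against the other neutrophils were Camp, with a mean log2 ratio of -4.43 ± 3.74 (28.0 against 3174 CPM), and Ltf, with -4.14 ± 3.09 (11.1 against 998 CPM). Ngp ranked among the lowest too on this measure, with -1.67 ± 3.58, being higher in 7 samples and lower in 15. Lcn2 itself, at 1624 against 1499 CPM, had a ratio of 0.60 ± 1.63 and was higher in 15 of 23 samples. Pooled over all 98 of its cells, Neut Camp held Lcn2 at 7929 CPM, against 2285 in Neut Lcn2, 700 in Neut Ifit3 and 511 in Neut Ptgs2. Such pooled levels weigh mice by their cells, and the mix of mice differs between subpopulations. With samples weighted equally, Lcn2 in Neut Lcn2 was at 1657 CPM on average over the 24 sums. The chemokines Ccl3 (-2.47 ± 2.32) and Ccl4 (-1.74 ± 2.67), the stress gene Gadd45b (-2.44 ± 2.21), the AP-1 subunit Fosb (-1.57 ± 1.58) and the chitinase-like Chil3 (-1.70 ± 2.25) were also among the 15 lowest.

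**Figure D1:**
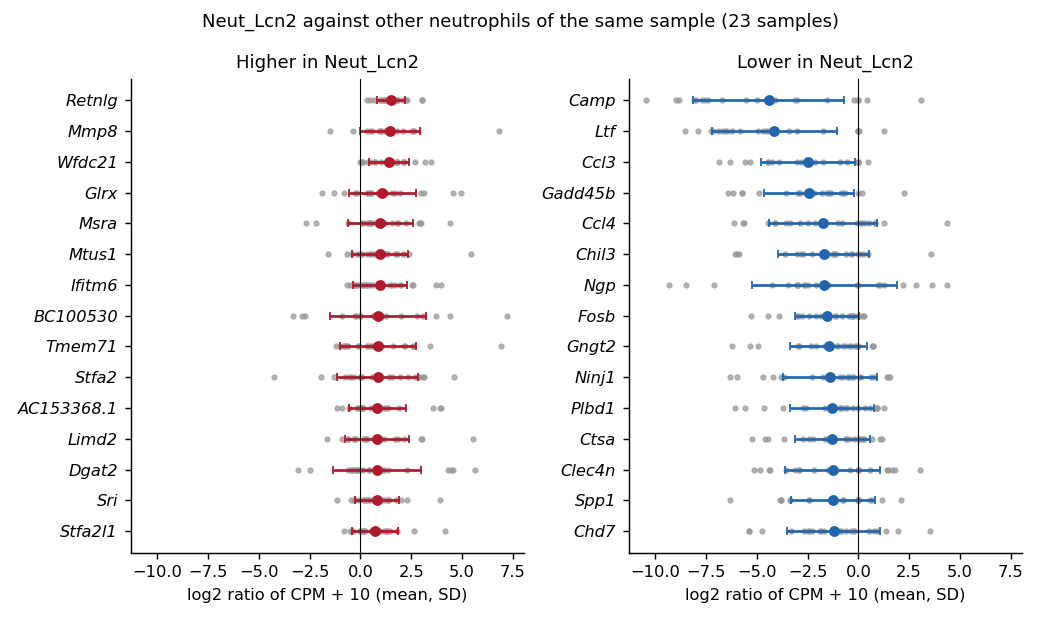
Genes that were highest (left, 15 genes) and lowest (right, 15 genes) in Neut Lcn2 cells against the other neutrophils of the same sample. The horizontal axis is the log2 ratio of CPM + 10, grey points are the 23 samples, and red (left) or blue (right) points with bars are the mean and SD. Retnlg lies above 0 in all 23 samples, while Camp and Ltf reach the lowest means, -4.43 and -4.14, with wide spread.

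The ratios were also taken against single subpopulations. Neut Ptgs2, named for the inducible cyclooxygenase, could be compared in 18 samples. Ngp had a mean log2 ratio of 2.56 ± 2.60 over Neut Ptgs2 (491 against 46.8 CPM), Retnlg of 2.39 ± 0.95, Wfdc21 of 2.06 ± 1.06, Mmp8 of 1.80 ± 1.03 and Lcn2 of 1.37 ± 0.91 (1531 against 530.3 CPM). Retnlg and Wfdc21 were higher in 18 of 18 samples, Mmp8 and Lcn2 in 17 and Ngp in 15. The calprotectin subunits were higher in 18 of 18 samples with little spread, at 1.09 ± 0.25 for S100a8 and 0.83 ± 0.21 for S100a9.

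Other genes ran lower in Neut Lcn2 than in Neut Ptgs2. Cxcr4, the chemokine receptor that holds neutrophils in and draws aged ones back to the marrow, had a mean log2 ratio of -2.13 ± 1.15 and was lower in Neut Lcn2 in 18 of 18 samples. Ptgs2 (-1.38 ± 0.69) and Nfkbia (-1.31 ± 0.80), which encodes an inhibitor of NF-kappaB that NF-kappaB itself induces, were lower in 17. Il1b (-0.60 ± 0.28) and the neutrophil attractant Cxcl2 (-0.89 ± 0.54) were lower in all 18, although Il1b was still found in 87.1% of thinned Neut Lcn2 cells, against 97.5% of Neut Ptgs2. Ccl6 went the other way from the remaining chemokines, with 1.10 ± 0.91 and higher values in 18 of 18 samples.

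Against Neut Ifit3, named for an interferon-induced gene, 16 samples could be used. Ngp (2.68 ± 2.11), Cd177 (1.96 ± 2.39), a neutrophil surface protein stored in secondary granules, Mmp8 (1.68 ± 1.26), Wfdc21 (1.63 ± 0.76), Lcn2 (1.46 ± 1.56) and Retnlg (1.29 ± 0.69) were the higher granule and marker genes. Ifit3 was lower in 14 of 16 samples, with -0.97 ± 2.32. Only 4 samples held 10 cells of Neut Camp: distal normal tissue and margin of mouse 26, distal normal tissue of mouse 37, and relapse-free mouse 7. There Camp (-8.55 ± 2.09), Ltf (-7.97 ± 1.60), Ngp (-5.66 ± 3.78), Chil3 (-3.15 ± 1.17) and Lcn2 (-2.11 ± 1.49) were lower in Neut Lcn2 in 4 of 4 samples, whereas Mmp8 was split, with -0.87 ± 1.76 and 2 samples on each side. Wfdc17 (4.81), Ccl6 (4.56), Csf3r (3.67), the receptor for the growth factor G-CSF, and Il1b (3.33) were higher in Neut Lcn2.

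**Figure D2:**
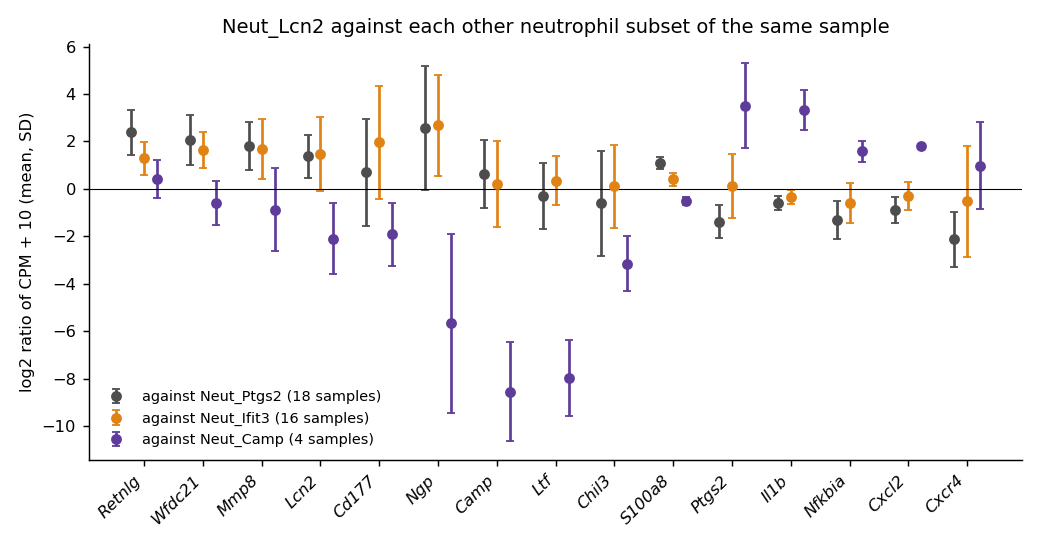
Mean log2 ratio of CPM + 10 of Neut Lcn2 over Neut Ptgs2 (18 samples), Neut Ifit3 (16 samples) and Neut Camp (4 samples) for 15 genes, with bars of 1 SD over samples. Lcn2 and Ngp lie above 0 against Neut Ptgs2 and Neut Ifit3 and below 0 against Neut Camp.

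The genes were then grouped by function. Of 2563 genes at 50 CPM or more, 832 (32.5%) had a mean ratio above 0 against the other neutrophils, with a median of -0.21. Of the calgranulin, stefin and WAP-domain genes, 12 of 15 were above 0, with a median of 0.49. Besides those named, this group held S100a6 (0.49 ± 0.42, higher in 21 of 23 samples), S100a11 (0.38 ± 0.41, higher in 20) and Wfdc17 (0.54 ± 0.51, higher in 19). Of the neutrophil identity genes 7 of 12 were above 0 (median 0.16), and of the tertiary granule genes 5 of 8 (median 0.12), of which Mmp9, the gelatinase, had 0.23 ± 0.73. Mmp8 was counted on that list, although its protein is known from secondary granules.

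The secondary granule genes were below 0 in 7 of 10 (median -0.81), the exceptions being Lcn2, Pglyrp1 (0.46 ± 0.84), a peptidoglycan recognition protein, and Hp (0.32 ± 0.47), haptoglobin. That left 30% above 0, near the 32.5% of all genes, and the other neutrophils of this ratio include Neut Camp. All 17 inflammatory genes of mature neutrophils had a mean below 0 (median -0.84), among them Ccrl2 (-1.22 ± 1.65, lower in 22 of 23 samples), Cxcr4 and Csf1, although Fos (-0.00 ± 0.55) and Junb (-0.07 ± 0.40) barely differed. Type I interferon genes, with 10 of 35 above 0 and a median of -0.21, and oxidase and NET genes, with 4 of 9 and -0.18, lay near all genes. Of the 8 primary granule genes 2 reached 50 CPM, and of 14 cell cycle genes 1 did.

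Turning to the tissues, the share of neutrophils that were Neut Lcn2 was computed in samples with at least 10 neutrophils. It was low and even in control lungs, with 15.4%, 13.9% and 16.1% (mean 15.1% ± 1.14, SD, n = 3), each resting on 13 to 36 neutrophils. Pre-MET lungs had 25.9%, 34.2% and 43.3% (34.5% ± 8.68), all above the controls. The lowest of them, mouse 8, rested on 7 of 27 neutrophils, with an interval of 11.1% to 46.3% that overlaps those of the controls. Relapse-free lungs ranged from 6.90% to 41.3%, with a median of 20.9% (21.03% ± 13.1, n = 5).

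Metastasis-bearing lungs spread over nearly the whole scale. Distal normal tissue had 54.0% ± 26.6 (n = 9), with the lowest at 4.40%, the median at 54.2% and the highest at 85.5%. Metastasis tissue had 36.7% ± 23.7 (n = 9, 4.17% to 80.5%, median 33.9%), cores 30.4% ± 28.1 (n = 6, 5.26% to 83.3%) and margins 36.3% ± 29.0 (n = 5, 3.57% to 81.1%). The 2 primary tumors with 13 neutrophils each had 0 Neut Lcn2 cells, which an exact binomial interval puts at up to 24.7%. Mouse 36 gave the lowest value in 3 tissues, with 4.40% in distal normal tissue (4 of 91, exact 95% binomial interval 1.21% to 10.9%), 4.17% in metastasis and 3.57% in margin. Intervals cover counting error only.

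Pre-MET exceeded control by 19.3 percentage points, without overlap, with an exact two-sided permutation p of 0.1, the smallest that 3 against 3 mice allow (adjusted p = 0.223 over 5 comparisons). Pre-MET exceeded relapse-free by 13.4 points (exact permutation p = 0.179, adjusted 0.223) and relapse-free exceeded control by 5.90 (exact p = 0.571), both with overlap. The last difference was 0.838 points without relapse-free mouse 11 and 9.43 without mouse 6. All control plates belonged to 1 sequencing batch that held no other group, so that batch and group cannot be told apart.

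Distal normal tissue exceeded relapse-free lungs by 33.0 points (exact permutation p = 0.0260, adjusted p = 0.130), the largest of the 5 differences, and the groups overlapped. Within the sequencing batches that held both, relapse-free mouse 18 had 23.6% against 34.6% in distal normal mouse 17, and relapse-free mouse 35 had 20.9%, above the 4.40% of distal normal mouse 36 and below the 76.6% of mouse 37, so that 1 of these 3 within-batch differences ran the other way. Taken over all immune cells, the difference was 9.02 points (exact p = 0.194), and without relapse-free mouse 6 or mouse 7 it was 29.5 or 30.8 points with p = 0.0615 in each exact test.

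Metastasis tissue was 17.3 points lower than distal normal tissue over all samples (exact p = 0.161, adjusted 0.223). In the 6 mice with both tissues, however, the share was lower in metastasis in 6 of 6, by a mean of 18.4 points (SD of the differences 17.7, exact sign-flip p = 0.03125, the smallest that 6 mice allow, adjusted p = 0.0938 over 3 such comparisons). It went from 85.5% to 80.5% in mouse 26, from 38.7% to 18.9% in mouse 28 and from 67.4% to 53.8% in mouse 30. Mouse 37 went from 76.6% to 54.8% and mouse 36 from 4.40% to 4.17%. The step of mouse 36, -0.229 points, rests on 2 of 48 metastasis and 4 of 91 distal normal neutrophils. It is too small for its sign to be certain, and the count of 6 of 6 and its sign-flip p depend on that sign. The largest step, from 81.8% to 31.5% in mouse 31, rests on 9 of 11 distal normal neutrophils (exact 95% binomial interval 48.2% to 97.7%), and without that mouse the mean was -12.1 points (exact p = 0.0625, the smallest that 5 mice allow). The tissues of mouse 30 were sequenced in different batches, and the metastasis of mouse 31 in part in another batch than its distal normal tissue. In the 4 mice with both tissues in 1 batch the mean was -11.7 points (SD of the differences 10.7, lower in 4 of 4, exact p = 0.125, the smallest that 4 mice allow). Mouse 36 is among these 4.

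Cores were 20.8 points below the distal normal tissue of the same 6 mice (SD 20.4, lower in 5 of 6, exact p = 0.0938, adjusted 0.125; the core of mouse 30 was in another batch than its distal normal tissue), and margins 12.7 points below it in 5 mice (SD 17.2, lower in 4 of 5, exact p = 0.125). Without mouse 31 the margins were 5.82 points lower (exact p = 0.25). These comparisons share their distal normal samples. The direction was therefore downward in most mice, and none of the 8 differences in share passed adjustment.

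**Figure D3:**
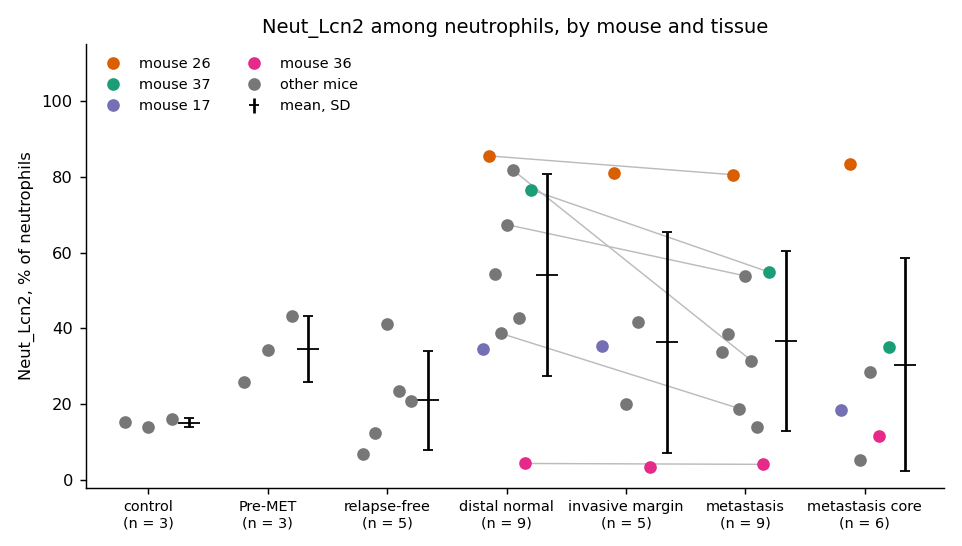
Percentage of neutrophils annotated as Neut Lcn2 by tissue, in samples with at least 10 neutrophils. Each point is a mouse, black marks are the mean and SD, grey lines join distal normal and metastasis tissue of a mouse, and mice 17, 26, 36 and 37 are colored. Mouse 26 lies between 80.5% and 85.5% in its 4 tissues and mouse 36 between 3.57% and 11.8%. Each of the 6 grey lines runs down towards metastasis, that of mouse 36 by 0.229 points. Primary tumors are not drawn.

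Levels within Neut Lcn2 cells were compared next. Retnlg was high in all 24 sums, with a mean of 19146 ± 6412 CPM (SD), a lowest value of 8558 in relapse-free mouse 18 and a highest of 37936 in the metastasis of mouse 32. Lcn2 had 1657 ± 903 CPM with a range from 315 to 3516, and Ngp 578 ± 812 CPM, from 0 in 3 sums to 3281. Mmp8 (1996 ± 802) and Wfdc21 (2859 ± 1031) varied less relative to their means than Ngp, whose SD was larger than its mean.

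Ngp differed both between mice and between tissues of a mouse. In mouse 26 its level was 1524 CPM in distal normal tissue, 1492 in metastasis, 471 in core and 1502 in margin, and in mouse 37 it was 2006, 3281 and 687 in distal normal tissue, metastasis and core. In mouse 17 it was 482 CPM in distal normal tissue, 405 in core and 139 in margin. In the distal normal tissue of mice 27, 28 and 30, sequenced in the same batch as mouse 26, it was 113, 0 and 35.5 CPM. The highest values of Ngp thus came from mice 26 and 37.

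Mice 17, 26 and 37 each gave 3 or 4 sums from pieces of 1 lung, so that the spread of log2(CPM + 10) among the sums of a mouse can be set beside that of the 3 mouse means. Means of several sums vary less than single sums even where mice do not differ, so the 2 SDs are not on 1 footing. Over 570 genes at 200 CPM or more, the median SD was 0.51 within mice and 0.54 between mouse means, and 51.1% of genes had the larger SD between mice. The genes named next are among the 30 with the widest range between mice. For Ifitm7, an interferon-induced transmembrane protein, the SD was 0.27 within mice and 1.61 between mouse means, for Cd177 it was 0.32 and 2.07, and for Ngp 0.96 and 1.27. Ifit3 (1.10 within, 2.09 between) was highest in mouse 17. With 3 mice these are descriptions, and mouse and sequencing batch cannot be told apart.

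**Figure D4:**
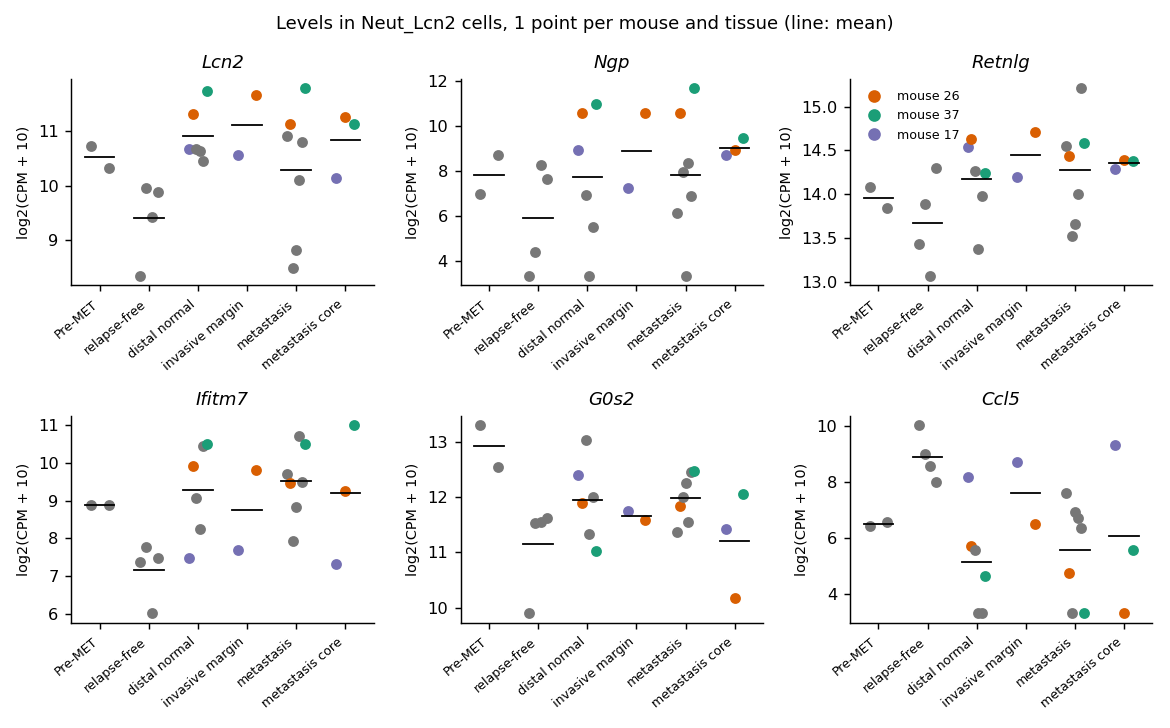
Level of Lcn2, Ngp, Retnlg, Ifitm7, G0s2 and Ccl5 in the summed Neut Lcn2 cells of each sample, on a log2(CPM + 10) scale, by tissue. Points are samples, the short lines are group means, and mice 17, 26 and 37 are colored. The 4 relapse-free samples lie below the 6 distal normal samples for Lcn2, and Ifitm7 of mouse 17 lies low in each of its tissues.

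Expression in distal normal tissue (6 mice) was compared with relapse-free lungs (4 mice) over 1873 genes in edgeR. No gene passed an adjusted p of 0.05 (0 genes, 0%), in DESeq2 neither, and 94 genes (5.02%) had an unadjusted p below 0.05, 57 higher and 37 lower, with a median SE of 0.824 on the log2 scale over all genes. The groups did not overlap for 27 genes (1.44%). All differences given for this comparison are therefore values and errors of genes that did not pass.

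Lcn2 ranked second by p. It had 315, 978, 675 and 931 CPM in relapse-free mice 7, 11, 18 and 35 and between 1384 and 3396 CPM in distal normal tissue (median 1623), so that the groups did not overlap. The log2 fold change was 1.60 ± 0.47 (SE, p = 9.5e-04 in edgeR, adjusted p = 0.538). Within batches Lcn2 was 675 CPM in relapse-free mouse 18 against 1625 in distal normal mouse 17, and 931 in relapse-free mouse 35 against 3396 in distal normal mouse 37. With sequencing batch as a term the fold change was 1.45 (adjusted p = 0.498). Since Lcn2 took part in the clustering, its level in these cells and the share of these cells are not independent readouts.

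Ifitm7 had 158, 209, 54.7 and 168 CPM in relapse-free mice 7, 11, 18 and 35 and 170 to 1440 CPM in distal normal tissue (median 747), with overlap only at mouse 17. Its log2 fold change was 2.59 ± 0.73 (edgeR p = 0.00116, adjusted p = 0.538). It passed in other settings, namely with a lower count minimum (2.68, adjusted p = 0.0211), without distal normal mouse 17 (2.76, adjusted p = 0.00440) and when all pieces of a metastasis-bearing lung were summed (10 against 4 mice, 2.53, adjusted p = 0.00613, the sole gene of 1090, 0.0917%). Within batches it was 54.7 against 170 CPM and 168 against 1440 CPM.

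Prok2, which encodes the secreted prokineticin 2, had the smallest p (9.0e-05, adjusted 0.169) with a log2 fold change of 3.94 ± 0.98. It was at 44.0 CPM in relapse-free mouse 11 and 0 in the other 3, and between 0 and 588 CPM in distal normal tissue (median 145). Without relapse-free mouse 11 it passed (7.48, adjusted p = 0.0173, a fit against values of 0 that gives no size), and without distal normal mouse 17 it passed as well (4.04, adjusted p = 0.0318).

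Ccl5, a chemokine that T and NK cells make in quantity, ran the other way. It had 1025, 495, 365 and 242 CPM in relapse-free mice 7, 11, 18 and 35 and 0 to 282 CPM in distal normal tissue, and its log2 fold change was -2.48 ± 0.75 (edgeR p = 0.00128, adjusted p = 0.538; without distal normal mouse 17, -4.18, adjusted p = 0.00440). Markers of other cells moved with it. The summed level of 6 NK cell genes was 168 to 626 CPM in relapse-free and 0 to 234 CPM in distal normal sums. That of 6 T cell genes was 18.2 to 394 CPM (median 97.2) and 0 to 58.4 CPM (median 4.79), and that of 7 dendritic cell genes 37.3 to 451 CPM (median 372) and 0 to 350.3 CPM (median 47.1). Their part in the value of Ccl5 was not tested. The fifth gene by p was the unnamed transcript Gm45266, at 0 in the 4 relapse-free sums and 70.8 CPM on average in distal normal tissue.

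The gene groups are read against all genes, of which 49.5% had a fold change above 0 (median -0.01). Secondary granule genes were above 0 in 7 of 7 tested (of 10 on the list), with a median log2 fold change of 1.60 and 2 at an unadjusted p below 0.05, Lcn2 and Olfm4 (2.93 ± 1.39), a granule glycoprotein. Ngp had 2.85 ± 1.43 (edgeR p = 0.0599), Cd177 2.06, Pglyrp1 0.65, Chil3 0.30 and Hp 0.20. The level of Ngp differed widely between distal normal mice, as given above. Cd177, as a mean of log2(CPM + 10) over the sums of a mouse, was 9.02 and 9.58 in mice 26 and 37 and 5.76 in mouse 17. The count and median of this group were not followed with single mice left out. Calgranulin, stefin and WAP-domain genes were above 0 in 13 of 13 (median 0.52), of which Wfdc21 had 0.80 ± 0.39. Neutrophil identity genes were above 0 in 11 of 12 (median 0.47), with the formyl peptide receptor Fpr1 at 1.32, the chemokine receptor Cxcr2 at 0.82 and Retnlg at 0.67 ± 0.33.

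Type I interferon genes were above 0 in 25 of 31 tested in the same comparison (median 0.70), with 5 at an unadjusted p below 0.05: Slfn5 (1.65), Rsad2 (1.42), Ifitm1 (1.28), Slfn1 (0.96) and Ifitm3 (0.77). Over the sums of a mouse, mean log2(CPM + 10) of Rsad2 was 9.59 in mouse 17, against 6.35 and 7.85 in mice 26 and 37. Ifitm7 ran the other way, with 7.50 against 9.62 and 10.7. The count was not taken without mouse 17. Inflammatory genes of mature neutrophils lay near the background, with 5 of 11 above 0 and a median of -0.13, and Ptgs2 had -0.98 ± 0.50. None of these genes passed adjustment over all genes. With DESeq2 size factors the counts above 0 were 7 of 7, 13 of 13, 11 of 12, 23 of 31 and 4 of 11 in the same order of groups, so that the signs of some interferon and inflammatory genes turned, as did those of 62 of all 1873 genes.

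Pre-MET lungs (2 mice with 26 and 29 Neut Lcn2 cells) were compared with the same relapse-free lungs in the same fit. Among these lungs, Pre-MET plates shared a sequencing batch only with part of the plates of relapse-free mouse 7. Batch and group can thus hardly be told apart, here and in the interaction below. Each sum carried 1 batch label, by which no relapse-free sum matched a Pre-MET sum, so batch as a term was not run. In edgeR 0 of 1873 genes passed (0%), in DESeq2 likewise 0, and 208 (11.1%) had an unadjusted p below 0.05, with 45 higher and 163 lower. Over all genes, 38.8% had a log2 fold change above 0 and 60.8% below. The median log2 fold change over all genes was -0.37, and -0.22 with DESeq2 size factors, and values are read against this shift. The groups did not overlap for 292 genes (15.6%).

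G0s2, which encodes an inhibitor of the lipase that breaks down stored triglycerides, had the second smallest p. It had 10077 and 5979.8 CPM in Pre-MET mice 9 and 10 and 946, 2957, 2992 and 3130 CPM in relapse-free mice 7, 11, 18 and 35, a log2 fold change of 1.67 ± 0.46 (edgeR p = 3.7e-04, adjusted p = 0.344). With DESeq2 size factors it was 1.86 and passed (adjusted p = 0.0422). Lcn2 (1475 against 725 CPM on average) had 1.01 ± 0.59 and Wfdc21 0.96 ± 0.50, both without overlap. Ngp (1.17 ± 1.87) and Retnlg (0.26 ± 0.44) overlapped.

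The other genes with the smallest p in Pre-MET rested on zeros. Gnb2, a G protein beta subunit, and Bud31, a splicing factor, were at 0 in both Pre-MET sums, against means of 335 and 305 CPM in relapse-free lungs, while 3 UMIs over both Pre-MET sums would be 49.3 CPM. Evi2b, a myeloid surface protein, had 38.3 and 0 CPM against 168 to 547 CPM (-4.34 ± 1.32, and -7.98 without Pre-MET mouse 9, against a single sum at 0). Eif2b2, a translation factor subunit, was at 421 CPM in Pre-MET mouse 9 and 0 in mouse 10 and in the 4 relapse-free sums. Of the groups, neutrophil identity genes were above 0 in 8 of 12 (median 0.27), calgranulin, stefin and WAP-domain genes in 9 of 13 (0.29), type I interferon genes in 17 of 31 (0.25) and secondary granule genes in 2 of 7 (-0.48), against 38.8% of all genes, and these counts were the same with DESeq2 size factors. Markers of other cells differed between the same sums. Monocyte genes summed to 0 and 259 CPM in Pre-MET against 310 to 745 CPM in relapse-free lungs, and NK cell genes to 0 and 153 against 168 to 626 CPM. Macrophage genes were at 0 in both Pre-MET sums against 37.3 to 110 CPM, and dendritic cell genes at 0 against 37.3 to 451 CPM. Their part in the Pre-MET values was not tested.

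Control lungs had too few Neut Lcn2 cells for this fit. The 12 control cells together held 10516 UMIs, in which Lcn2 was at 475 CPM (exact 95% Poisson interval 154 to 1110), Retnlg at 13503 (11374 to 15916), Ngp at 0 (up to 351) and Ptgs2 at 3328 (2318 to 4629). These intervals cover counting error only and no spread between mice. The 5 UMIs of Lcn2 all came from control mouse 2 (1004 CPM in 5 cells), and control mouse 3 had none in 5 cells. The 3 cells of primary tumors held 8593 UMIs with Retnlg at 22227 CPM and no Lcn2 (up to 429). Of these UMIs, 6796 came from the 1 cell of mouse 9. With a minimum of 5 cells, 2 control mice entered, and edgeR called 0 of 1324 genes in Pre-MET against control (0%, 201 at an unadjusted p below 0.05) and 5 in relapse-free against control (0.378%, 4 higher and 1 lower), each control sum having 5 cells. The 5 genes, named after their values were seen, were Fcer1g, an Fc receptor subunit (2627 to 4708 CPM against 0 and 1406 CPM in control), the mitochondrial ribosomal RNA mt-Rnr2 (7961 against 2001 CPM on average), Arpc5 and the decoy receptor Il1r2, both at 0 in control, and Cnpy2, which came from 1 control sum. Since control plates shared no sequencing batch with other groups, batch and group cannot be told apart in these calls.

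Whether tissue altered Neut Lcn2 and Neut Ptgs2 cells to different extents was tested as an interaction in samples with 10 cells of both, over 4128 genes. In Pre-MET against relapse-free lungs 1 gene passed (0.0242%), again G0s2, whose log2 fold change was 2.78 ± 0.51 higher in Neut Lcn2 than in Neut Ptgs2 (edgeR adjusted p = 2.80e-04). In Neut Ptgs2 cells G0s2 was at 4295 and 1092 CPM in Pre-MET mice 9 and 10, which gave 24 and 13 such cells, and between 2807 and 4254 CPM in relapse-free lungs. In Neut Ptgs2 the value of Pre-MET mouse 10 thus lay below the relapse-free range and that of mouse 9 just above it, while both Pre-MET values of Neut Lcn2 lay above the relapse-free values. The size of the interaction rests in part on the low value from those 13 cells. With a minimum of 5 cells the interaction no longer passed (0 genes), where Pre-MET mouse 8 entered with 5734 CPM in 7 Neut Lcn2 cells and 6779.7 CPM in 13 Neut Ptgs2 cells. The chemokine Ccl6 came next (2.13 ± 0.51, adjusted p = 0.0599).

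For distal normal against relapse-free lungs the interaction called 0 genes in edgeR (0%, 72 at an unadjusted p below 0.05), and for metastasis against distal normal tissue 0 (0%, 75). The first of these fits had 4 samples in each group, relapse-free mice 7, 11, 18 and 35 and distal normal mice 17, 27, 28 and 37. Ifitm7 in their Neut Ptgs2 cells was at 247, 184, 140.3 and 193 CPM in the relapse-free and 241, 655, 228 and 1537 CPM in the distal normal mice, in that order, and its interaction was 0.44 ± 0.73 (edgeR p = 0.553, adjusted p = 1). Lcn2 in the same cells was at 283, 442, 483 and 582 CPM in relapse-free and 461, 509, 456 and 872 CPM in distal normal mice, with overlap, and its interaction was 1.42 ± 0.58 (edgeR p = 0.0138, adjusted p = 1).

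Within metastasis-bearing lungs, Neut Lcn2 cells of metastasis (7 mice) and distal normal tissue (6 mice) differed in no gene at an adjusted p of 0.05 in edgeR or DESeq2 (0 of 1873, 0%), and 39 genes (2.08%) had an unadjusted p below 0.05. Mouse was not a term in this fit, although 4 mice gave both tissues. Lcn2 had a log2 fold change of -0.27 ± 0.38, Retnlg of 0.06 ± 0.28, Mmp8 of -0.25 ± 0.34 and Ngp of 0.17 ± 1.03, and the metastasis values of Lcn2 ran from 351 to 3516 CPM. Nfkbia had the smallest p (0.0027, adjusted 0.998), with 746 to 5298 CPM in metastasis (median 2218) and 565 to 1782 CPM in distal normal tissue (median 1063), a fold change of 1.10 ± 0.36. With mouse as a block it was 0.65 and with batch as a term 0.67. Inflammatory genes of mature neutrophils were above 0 in 8 of 11, with a median of 0.33, against 48.4% of all genes, and in 8 of 11 with DESeq2 size factors, under which the median of all genes moved from -0.03 to 0.08. With mouse as a block in the 4 mice with both tissues, 7 of 10 were above 0 (median 0.17), against 47.4% of 464 genes, of which 0 passed. Erythroid markers summed to 0 to 226 CPM in metastasis (median 0) against 0 to 832 CPM in distal normal tissue (median 87.6). Dendritic cell markers went the other way, with 52.1 to 395 CPM (median 174) against 0 to 350 CPM (median 47.1). Their part was not tested.

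The other genes with the smallest p in metastasis were lower there. Plin2, which coats lipid droplets, had -1.77 ± 0.65 and a range of 0 to 234 CPM in metastasis against 73.4 to 462 CPM in distal normal tissue. Ddit3, the stress transcription factor CHOP, had -2.65 ± 1.02 and Hacd4, an enzyme of fatty acid elongation, -1.83 ± 0.71. P2ry12, an ADP receptor, was at 0 in the 7 metastasis sums and in 2 of the 6 distal normal sums. Plin2, Ddit3, Hacd4 and P2ry12 were not among the 464 genes tested with mouse as a block, so no values within mice are given for them.

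Core cells (3 mice) against distal normal cells gave 0 calls in edgeR and DESeq2 (0%), with 52 genes (2.78%) at an unadjusted p below 0.05 and 38 (2.03%) without overlap between groups. Over all genes, 46.7% had a fold change above 0 and 53.3% below. The chemokine group was above 0 in 5 of 6 genes tested, with a median of 1.79, and 4 had an unadjusted p below 0.05: Ccl4 (1.91 ± 0.68), Cxcl3 (2.87), Ccl2 (3.29) and Ccl5 (1.67). Ccl4 had 1335 CPM in the core of mouse 17, 0 in that of mouse 26 and 878 in that of mouse 37, against 42.8 to 409 CPM in distal normal tissue. The core of mouse 26 was at 0 for all 4 chemokines, so the values came from mice 17 and 37. Without the core of mouse 17 the fold change of Ccl4 was 1.13. Type I interferon genes were above 0 in 25 of 31 (median 0.42), and in 26 with DESeq2 size factors. Mouse 17, in which Ifit3 was highest, gave 1 of the 3 core but 1 of the 6 distal normal sums, and with mouse as a block 18 of 28 interferon genes were above 0 (median 0.11), against 41.7% of all genes. Of the chemokines, 3 could be tested with that block, and 2 were above 0, with Ccl4 at 1.53 ± 0.50 (edgeR p = 0.00239, adjusted p = 0.709). NK cell markers summed to 19.1 to 330 CPM and erythroid markers to 38.2 to 875 CPM in these cores, against 0 to 234 and 0 to 832 CPM in distal normal sums, and their part was not tested.

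The 3 core mice also had distal normal sums. With mouse as a block over these 3 mice, edgeR called 0 of 1291 genes (0%), with 46 at an unadjusted p below 0.05. Ly6g, a neutrophil surface protein, had the smallest p there (-1.96 ± 0.60, p = 0.00115, adjusted p = 0.709), from 156 CPM in distal normal tissue to 90.0 in core in mouse 17, from 630.5 to 269 in mouse 26 and from 775 to 57.3 in mouse 37. The marker Ngp was among the 5 smallest (-1.16 ± 0.39, p = 0.00274, adjusted p = 0.709), from 482 to 405 CPM in mouse 17, from 1524 to 471 in mouse 26 and from 2006 to 687 in mouse 37. Both genes were thus lower in the core in 3 of 3 mice without passing adjustment, and without the block they had -1.84 ± 1.33 and -0.64 ± 1.39. The core sums of mice 17, 26 and 37 held 66665, 14864 and 52401 UMIs. Ly6g in each core, and Ngp in that of mouse 26, therefore rest on a few UMIs.

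The lowest genes of cores in the unpaired comparison were weakly expressed. Gm10250 and Ngly1, a deglycosylating enzyme, were at 0 in the 3 core sums, while Cds2, an enzyme of phospholipid synthesis, had -3.26 and the signal regulatory protein Sirpb1b -2.59. Margin cells (2 mice) against distal normal cells gave 0 calls in edgeR and DESeq2 (0%), 7 genes (0.374%) at an unadjusted p below 0.05 and 78 (4.16%) without overlap. The 5 smallest p belonged to Twistnb, Mien1, Gm21738, Osbpl2 and Pithd1, all lowly expressed, and Twistnb and Osbpl2 were at 0 in both margins. The fold change of Gm21738 went from -4.72 to -1.13 without distal normal mouse 37, that of Mien1 from -3.12 to -6.73 and that of Pithd1 from -3.41 to -5.93 without the margin of mouse 17. Type I interferon genes were above 0 in 24 of 31 (median 0.33) and calgranulin, stefin and WAP-domain genes in 11 of 13 (median 0.31), against 50.5% of all genes, with the same counts under DESeq2 size factors. Mouse 17, whose margin region is labelled NON-MET and not ADJ, gave 1 of the 2 margin sums. With mouse as a block, interferon genes were above 0 in 20 of 29 (median 0.11) and calgranulin, stefin and WAP-domain genes in 4 of 15 (median -0.13), against 48.4% of all genes, so that the median of the latter group turned below 0 within mice. Erythroid markers summed to 558 and 783 CPM in the 2 margins against 0 to 832 CPM in distal normal sums, and lung epithelial markers to 81.6 and 181 against 0 to 136 CPM, and their part was not tested.

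For comparison, the same model was fitted to sums of all neutrophils of a sample, in which the mix of subpopulations differs and which more samples could enter. Mouse was not a term in this fit, although the core mice also gave distal normal samples. Cores (6 samples) against distal normal tissue (9 samples) then gave 30 calls of 2258 genes (1.33%), 28 higher and 2 lower, whereas the smaller fit of Neut Lcn2 sums, with 3 against 6 samples and 1873 genes, gave 0. Ccl4 was among them at 9603 against 341 CPM on average (4.36 ± 0.81, adjusted p = 0.00169), as was Ccl3 at 3484 against 31.0 CPM (6.13 ± 1.07). One of the leading genes of Neut Lcn2, Mtus1, was among the 2 lower genes (-2.09 ± 0.59). Metastasis against distal normal tissue gave 2 calls (0.0886%), P2rx7 and Spp1, distal normal tissue against relapse-free lungs 3 (0.133%), all lower, Ccl5, Gzma and Slc9a9, and Pre-MET against control 1 (0.0443%). The last was Ifitm7, at 408 to 796 CPM in 3 Pre-MET lungs and 0 to 58.5 CPM in 3 control lungs (4.75 ± 1.00, adjusted p = 0.0114). Control plates shared no sequencing batch with other groups, so batch and condition cannot be told apart for Ifitm7. These genes were named after their values were seen, and the difference in calls from Neut Lcn2 was not tested.

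Markers of other cells were low in the 24 sums. Summed levels reached 394 CPM for 6 T cell genes, 255 for 6 B cell genes, 626 for 6 NK cell genes, 782 for 7 monocyte genes (median 495), 110 for 10 macrophage genes and 451 for 7 dendritic cell genes, of which Flt3 and Siglech were at 0. Erythroid genes reached 894 CPM, lung epithelial genes 210, platelet genes 117 and tumor genes 942, the last mostly Cd24a, which neutrophils also express, with Epcam at 0. The highest T, NK, macrophage and dendritic cell sums were all in relapse-free mice 7 and 11.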

How the data were processed

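Members, gene lists and tests were chosen with earlier results of these data known. The authors deposited raw UMI counts of 52634 gene rows for each well of 148 plates of 384 wells, unnormalized, and a table of retained cells that gives subpopulation, mouse, tissue and sequencing batch. Per the study's methods, reads were mapped with HISAT to mm10, reads with multiple mapping positions were excluded, exonic reads were collapsed to UMIs, and cells under 500 UMIs were discarded. The submitters' processing notes name bcl2fastq 2.15.0.4. Which release of the gene annotation was counted is not given in the sources used here. Subpopulations come from the authors' clustering, and cells were not clustered again. The sort gate excluded doublets, and no doublet caller was run.

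UMIs were summed over the Neut Lcn2 cells of a mouse and tissue with at least 10 such cells, since cells are not replicates. Mice are separate animals, and tissues of 1 mouse are separate samples. All tissues were fitted together in edgeR 4.0.16 (R 4.3.3, limma 3.58.1; TMM, filterByExpr, robust quasi-likelihood test, Benjamini-Hochberg adjustment over 1873 genes, calls at an adjusted p below 0.05). Tissue was the only term of this fit and mouse was none, so sums of 1 mouse counted as independent in the spread behind every p. Mice 17, 26 and 37 gave 3, 4 and 3 of the sums. The SE is the log2 fold change divided by the root of F. DESeq2 1.42.0 was the alternative tool. Comparisons share groups: Pre-MET and distal normal were both set against the same relapse-free lungs, and metastasis, core and margin against the same distal normal tissue. Comparisons with control, planned with this minimum, could be fitted only with 5 cells, and core and margin comparisons were added after the data were seen. The script was tested on simulated data. Shares of neutrophils (samples with at least 10 neutrophils) were compared with exact permutation tests over mice. Within-sample ratios used a pseudocount of 10 CPM. Python 3.11.15, numpy 2.4.6, scipy 1.17.1 and pandas 2.3.3 were used.

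Named genes were the 15 highest and 15 lowest mean ratios among genes at 200 CPM or more, the 5 smallest p of each comparison (no gene having passed), and members of 23 written lists. Samples were paired by the mouse in the annotation, and 5 of 6 mice deviated from the tissue mean share in the same direction in distal normal tissue and metastasis. Alternatives were the normalization, the tool, the count filter, the minimum of cells and UMIs, the fit to the tissues compared alone, mouse as a block, batch as a term, and leaving out mouse 26, photoactivated plates or each mouse. For batch as a term each sum had 1 label, also where its plates lay in several batches. All 592 empty wells were left out.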

Additional observations from a re-analysis of the deposited data

Results flagged for a closer look

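In the levels of 12 genes and the shares of neutrophils, 41 groups of 4 to 10 samples were searched for a sample far from the others. In all, 4 were found, each in a gene. Chance gives about 5% of groups for normally distributed values, which CPM with many zeros need not follow. G0s2 was at 946 CPM in the Neut Lcn2 cells of relapse-free mouse 7, while the other relapse-free samples had 2957 to 3130 CPM. Prok2 was at 44.0 CPM in relapse-free mouse 11 and at 0 in the other relapse-free samples, against which any value above 0 would be found. Ccl5 was at 282 CPM in the distal normal tissue of mouse 17 and at 0 to 42.8 CPM in the other distal normal samples. S100a8 was at 308280 CPM in the metastasis of mouse 26 and at 104067 to 153837 CPM in the other metastases.

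The difference of G0s2 between Pre-MET and relapse-free lungs was 2.78 larger on the log2 scale in Neut Lcn2 than in Neut Ptgs2 cells, the single gene for which a test of the difference itself passed, and it did not pass with a minimum of 5 cells per sum.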

How the results depend on the processing

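Expression comparisons kept their count of 0 calls in 99 alternatives and moved in 5: to 1 in Pre-MET against relapse-free lungs with DESeq2 size factors (G0s2), and in distal normal tissue against relapse-free lungs to 1 with a minimum count of 3, to 1 when all sections of a metastasis-bearing mouse were summed and set against relapse-free lungs, which changes the tissues as well, and to between 0 and 3 when each mouse was left out (3 without distal normal mouse 17, 1 without relapse-free mouse 11). With mouse as a replicate block, the counts stayed at 0 for metastasis, core and margin. The interaction for Pre-MET against relapse-free lungs gave 0 genes with 5 cells per sum and 1 to 2 when a mouse was left out (2 without relapse-free mouse 7 or 18). With 20 cells per sum, 8 of the 15 leading genes were shared with the list given. Of the shares, distal normal minus relapse-free was 9.02 points of all immune cells (p = 0.194), 29.9 in cells with 1000 UMIs (p = 0.159) and 29.1 to 39.2 when a mouse was left out (exact p from 0.00466 to 0.0615). Metastasis minus distal normal was -18.4 points with the replicate block, paired within mice (exact p = 0.03125), and -23.5 to -13.3 when a mouse was left out (-23.5 without distal normal mouse 36, exact p = 0.0465). No share and none of 26 fold changes (the genes with the smallest p and Lcn2) reversed under the alternatives run for them, and other genes given with values were not followed through every alternative. Batch as a term for Pre-MET against relapse-free lungs, interactions with control, and the interaction without either Pre-MET mouse were not run. Small sums limit what could be seen: the median SE of a log2 fold change was 0.736 to 1.21 between comparisons, the latter with 2 Pre-MET mice.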
